A study of Mus musculus with 7 samples.

Results

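The genes described here are 9 costimulators of CD4+ T cells, chosen by symbol from the 19589 genes of the deposited table: the receptor Icos, the TNF receptor family members Tnfrsf4, Tnfrsf9, Tnfrsf18 and Cd27, and the TNF family ligands Cd40lg, Tnfsf8, Tnfsf9 and Tnfsf11. All 9 were in the table. RNA came from sorted CD4+ spleen cells of C57BL/6 mice, 3 of the genotype RT (RT1 to RT3) and 4 wild type (WT1 to WT4). The RT mice lack Tet2, which encodes an enzyme that oxidises 5-methylcytosine in DNA, and carry the G17V form of the small GTPase RHOA, per the series' design text. What drives the mutant RHOA, where and when Tet2 was deleted, the age of the mice and any treatment are not given, and no agent is named for either group.

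T cells need a second signal beside the antigen receptor, and these proteins carry it. ICOS, a relative of CD28, binds ICOS ligand on B cells and dendritic cells and recruits phosphoinositide 3-kinase; T follicular helper cells, which support B cells in the germinal centre, depend on it. OX40 (Tnfrsf4), 4-1BB (Tnfrsf9), GITR (Tnfrsf18) and CD27 signal through TRAF adaptors to NF-kB and prolong the survival of activated cells, and OX40 and GITR are also carried by regulatory T cells. The ligands face the other way: CD40 ligand (Cd40lg) instructs B cells and dendritic cells through CD40, CD30 ligand (Tnfsf8) binds CD30, 4-1BB ligand (Tnfsf9) binds 4-1BB, and RANKL (Tnfsf11) binds RANK.

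The 7 libraries fell into a deep set (RT1, WT1 and WT2), with totals of 18566233 to 21800352 reads behind the values, and a shallow set (RT2, RT3, WT3 and WT4), with 105763 to 121659. In a gene of 2 kb, 1 read made 0.0229 to 0.0269 RPKM in the deep set and 4.11 to 4.73 RPKM in the shallow set. RPKM is reads per kilobase of gene and 1000000 reads of the library, and its sum over genes was 133044 to 152578 in deep libraries and 326187 to 366023 in shallow ones. Levels are therefore given as TPM, the RPKM value rescaled so that each library sums to 1000000; reads are whole reads worked out from the RPKM values. Rescaling moved the median log2 difference between RT and WT by -0.22, over the 9605 genes kept before it and the 10979 kept after it. Cd4 had 842 to 1419 TPM in RT libraries and 710.8 to 956 TPM in WT libraries, and Cd8a was at 0 in RT libraries and at 4.23 to 14.2 TPM in WT libraries. Tet2 had 34.8, 2.19 and 0 TPM in RT libraries, against 47.5, 30.7, 8.37 and 7.98 TPM in WT libraries; Rhoa had 399 to 533 TPM in RT libraries and 481 to 530.1 TPM in WT libraries. A value for the whole gene checks neither the Tet2 deletion nor the mutant RHOA.

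Icos, Tnfrsf4 and Tnfsf8 rose in CD4+ cells of RT mice in the test on reads described below. Tnfrsf9 stood above WT in every RT library without passing that test, and the RT and WT levels of Tnfrsf18, Cd27, Cd40lg, Tnfsf11 and Tnfsf9 overlapped. By mean TPM the RT level was 3.06 times the WT level for Icos, 5.12 times for Tnfrsf4, 4.76 times for Tnfrsf9, 2.61 times for Tnfsf8, 2.23 times for Tnfrsf18, 1.29 times for Cd27 and 0.866 times for Cd40lg. These means pool 1 deep and 2 shallow RT libraries with 2 of each in WT, and so mix genotype with library set. Within deep and within shallow libraries the ratios were 2.36 and 3.45 for Icos and 2.69 and 5.42 for Tnfrsf4. They were 1.48 and 7.14 for Tnfrsf9, 1.11 and 2.62 for Tnfrsf18, 0.911 and 1.57 for Cd27, and 1.13 and 0.730 for Cd40lg. In 4 of the 9 genes (Icos, Tnfrsf4, Tnfrsf9 and Tnfsf8) every RT library lay above every WT library in TPM. This order was found in 4.6% of the 9605 genes that reached 1 RPKM in 3 or more libraries. For Tnfrsf4, Tnfrsf9 and Tnfsf8 it lay within counting error (95% Poisson interval). The interval was 99.1 to 355 TPM for Tnfrsf4 in WT3, against 303 TPM in RT1. For Tnfrsf9 in WT3 it was 19.9 to 118 TPM, against 82.6 TPM in RT1. For Tnfsf8 in RT2 it was 188 to 362 TPM, against 232 TPM in WT1. The Icos intervals of the groups did not overlap, ending at 256 TPM in WT3 and starting at 260 TPM in RT2. In bulk RNA of sorted cells, more cells that carry a transcript and more transcript per cell cannot be told apart.

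**Figure D1:**
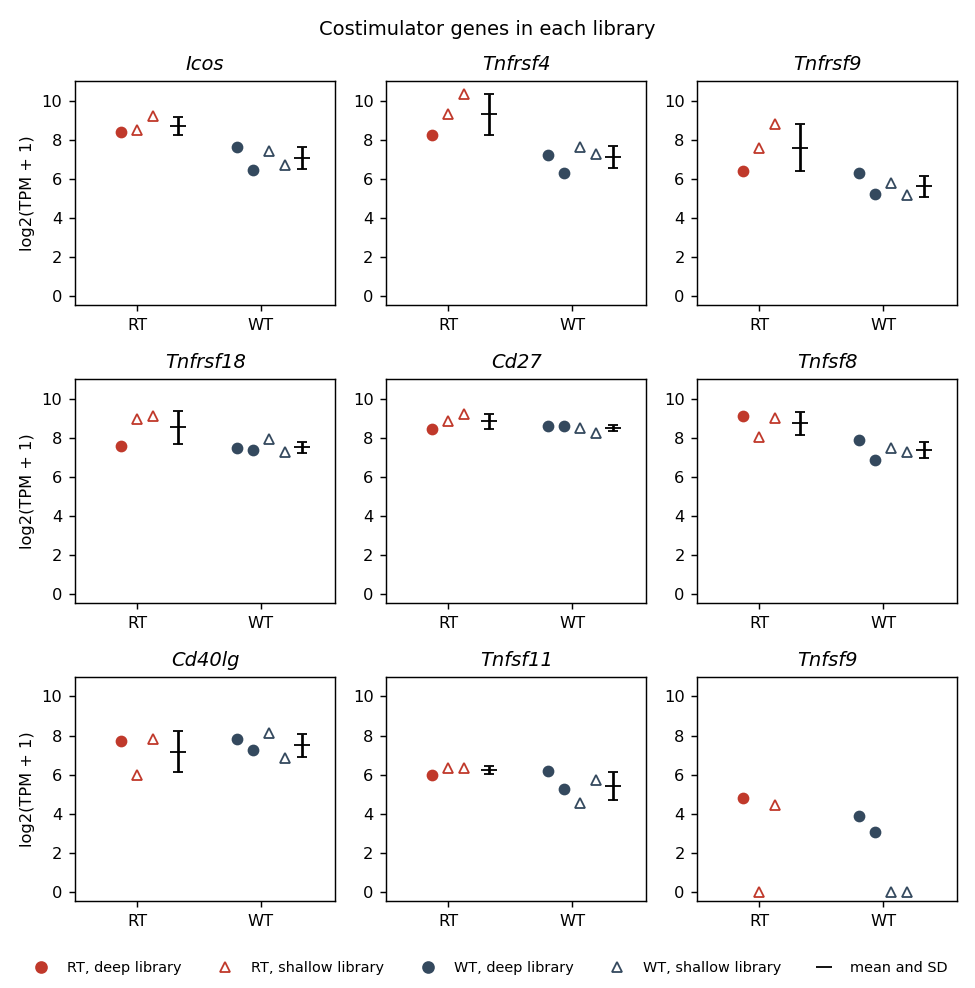
Level of each costimulator gene in each library, as log2(TPM + 1), with RT libraries (red) left of WT libraries (dark blue). Filled circles are deep and open triangles shallow libraries, and bars give the mean and SD of each group (none for Tnfsf9, which was at 0 in 3 libraries). The RT points of Icos, Tnfrsf4, Tnfrsf9 and Tnfsf8 all lie above the WT points, and those of the other 5 genes overlap them.

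These differences were tested on the deposited RPKM and on the reads. On log2(RPKM + 1), with limma over 9605 genes and Benjamini-Hochberg adjustment, 0 of the 9 costimulators passed an adjusted p of 0.05 (Icos, Tnfrsf4, Tnfrsf9 and Tnfsf8, 4 in all, were higher at an unadjusted p under 0.05, as were 4.53% of genes), where 0.0416% of genes were called higher in RT and 0.0104% lower (4 and 1 genes; unadjusted p was under 0.05 for 435 and 400). The log2 differences of the 9 ran from -0.11 for Cd40lg to 2.37 for Tnfrsf4 with a median of 1.24, against 0.00 over all genes, and their adjusted p from 0.43 to 0.97. On the reads, with limma voom and a term for the library set for the 5865 genes whose reads in the shallow libraries summed to 10 or more, 8 of the 9 could be tested; 3 rose (Tnfsf8, Tnfrsf4 and Icos) and 0 fell. In that test 9.28% of genes were called higher in RT and 7.95% lower. The median log2 fold change of the 8 was 0.57, against -0.03 over all genes tested. Without RT1, 0 of the 5865 genes passed by limma voom in either direction (unadjusted p was under 0.05 for 171 with a higher and 357 with a lower level), whereas the shallow libraries alone, which also leave out RT1, called 222 higher and 322 lower. Without RT1 the deep set holds WT libraries only, so with the set term both fits take the fold change from the shallow libraries. Tnfrsf4, for example, had a log2 fold change of 2.28 in both. Its SE was 0.81 where only RT1 was dropped and 0.40 for the shallow set. The cause of the lost calls was not tested. The exact permutation test over the 35 splits of 7 libraries cannot go below a two-sided p of 0.0571, and it gave that value on log2(TPM + 1) for Icos, Tnfrsf4, Tnfrsf9 and Tnfsf8, the genes whose groups did not overlap on that scale. On log2(RPKM + 1) the exact p was 0.0571 for Tnfsf8, 0.114 for Icos and 0.171 for Tnfrsf4 and Tnfrsf9.

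Within the deep libraries alone (1 RT, 2 WT), voom called Tnfsf8 and Tnfrsf4 of the 8 genes, where 4.26% of genes were called higher; RT1 is the lone RT library there and was assumed to vary as WT1 and WT2 do. Within the shallow libraries alone (2 RT, 2 WT) it called Tnfrsf4, Icos, Tnfrsf9, Tnfsf8 and Tnfrsf18, where 3.79% were called higher. WT3 and WT4 differed by little more than counting noise (chi-square per degree of freedom 1.14, against 2.997 for RT2 and RT3). The spread in this fit comes from these libraries alone. The same shallow fit called 6 of 8 general T cell markers higher. Of genes of CD4+ cell states, it called 2 of 5 regulatory T genes tested (Foxp3 and Capg) and 7 of 10 T follicular helper genes higher. It also called 8 of 8 B cell markers tested and 6 of 8 myeloid and dendritic markers tested lower, where 5.49% of genes were called lower. The part of such cell type differences in the shallow values of the costimulators was not tested. The difference between the sets was itself tested by an interaction term, and 0 of the 8 genes passed by limma voom (adjusted p 0.55 to 0.94; 1, Tnfrsf18, at an unadjusted p under 0.05, as were 2.51% of genes with a larger difference in shallow libraries), where 1.14% of genes did. The values of the 2 sets are therefore given side by side below without a claim that the sets differ.

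**Figure D2:**
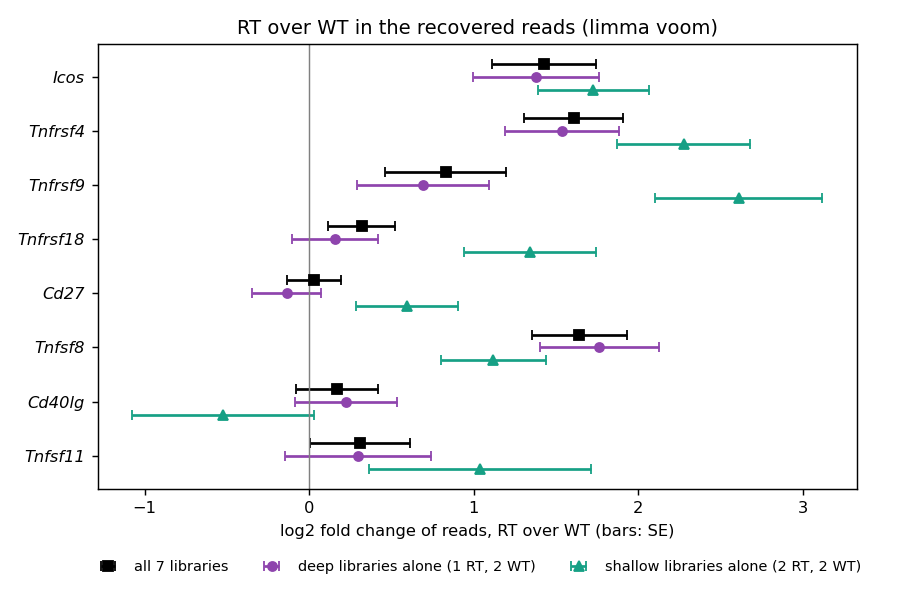
Log2 fold change of reads, RT over WT, for the 8 costimulators that could be tested, with bars of 1 SE. Black squares use all 7 libraries, purple circles the deep libraries alone (1 RT, 2 WT) and green triangles the shallow libraries alone (2 RT, 2 WT). Icos, Tnfrsf4 and Tnfsf8 lie above 1 in all 3 fits, Tnfrsf9 runs from 0.69 in deep to 2.61 in shallow libraries, and Cd40lg changes sign.

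Icos (ENSMUSG00000026009, chromosome 1, 60977927 to 61000320, plus strand in mm10) is the family's CD28 relative. It had 336, 354 and 595 TPM in RT1, RT2 and RT3, against 197, 87.3, 172 and 103 TPM in WT1 to WT4. The groups did not overlap, RT3 being the highest library and WT2 the lowest. The reads behind these values were 3639, 47 and 81 in RT libraries and 1671, 915, 24 and 15 in WT libraries. Icos averaged 428 ± 145 TPM in RT and 139.9 ± 53.2 TPM in WT (SD, n = 3 and 4). Its log2 fold change in the reads was 1.43 ± 0.32 (SE, adjusted p = 0.0189 by limma voom), with 1.38 in deep libraries alone (adjusted p = 0.085) and 1.73 in shallow ones. Leaving out 1 library ended the call for RT1 (log2 fold change 1.73, adjusted p = 0.598), RT3 (1.37, adjusted p = 0.054), WT3 (1.43, adjusted p = 0.051) and WT4 (1.36, adjusted p = 0.052), and the log2 fold change ran from 0.99 without WT2 to 1.85 without WT1.

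Tnfrsf4 encodes OX40 (chromosome 4, 156013843 to 156016612, plus strand), a receptor that CD4+ cells gain on activation. Its TPM was 303 in RT1, 625 in RT2 and 1292 in RT3, against 148, 76.7, 199 and 155 in WT1 to WT4. Reads numbered 1304, 33 and 70 in RT and 500, 320, 11 and 9 in WT. The RT libraries spread widely, RT3 lying far above RT1, but all 3 stood above the WT libraries. The means were 739.8 ± 505 TPM in RT and 145 ± 50.5 TPM in WT, and the log2 fold change in the reads was 1.61 ± 0.30 (adjusted p = 0.00933). It was 1.54 in deep libraries alone and 2.28 in shallow ones; the call was lost without RT1 (2.28, adjusted p = 0.439) and kept without any other library.

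Tnfrsf18, which encodes GITR, lies on chromosome 4 (156026164 to 156028895, plus strand), 9.55 kb from Tnfrsf4. It had 186, 492 and 546 TPM in RT libraries and 173, 161, 242 and 154 TPM in WT libraries. RT2 and RT3 were above all WT libraries, and RT1 lay among them. The mean was 408 ± 194 TPM in RT and 183 ± 40.6 TPM in WT. Its log2 fold change of 0.32 ± 0.20 did not pass the test on all reads (adjusted p = 0.319); deep libraries alone gave 0.16 and shallow ones 1.34 (adjusted p = 0.0155). Of its exons, 414 bases overlap the antisense gene Gm16008, and without strand information reads from the 2 genes cannot be told apart.

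The neighbours were compared within each library. The ratio of Tnfrsf4 to Tnfrsf18 RPKM was 1.62, 1.27 and 2.37 in RT libraries, against 0.856, 0.476, 0.819 and 1.0 in WT libraries. The groups did not overlap, and Tnfrsf4 was the higher of the pair in all 3 RT libraries. Relative to Foxp3, the transcription factor that defines regulatory T cells, Tnfrsf4 also stood higher in RT, at 2.35 to 3.57, against 0.816 to 2.14 in WT, as did Tnfrsf9 (0.687 to 1.09 in RT, 0.385 to 0.586 in WT). The ratio to Foxp3 overlapped for Icos (1.08 to 2.79 in RT, 0.929 to 1.86 in WT) and for Tnfrsf18 (0.993 to 2.81 in RT, 1.19 to 2.62 in WT). The ratio of Tnfrsf4 to Icos overlapped as well (0.90 to 2.17 in RT, 0.752 to 1.51 in WT). The margin of Tnfrsf4 to Foxp3 was small, at 2.35 in RT3 against 2.14 in WT3, where Tnfrsf4 had 11 reads. Since Icos, Tnfrsf4, Tnfrsf9 and Tnfsf8 separated in TPM on their own, separation of their ratios to genes that overlapped was in part fixed in advance. The share of other gene pairs that separate was not computed. These ratios and those to Cd27, Cd40lg and Cd28 below are therefore a description.

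Tnfrsf9 encodes 4-1BB, a receptor of activated T cells (chromosome 4, 150914562 to 150946102, plus strand). It had 82.6, 189.8 and 444 TPM in RT libraries and 75.9, 36.2, 54.3 and 34.5 TPM in WT libraries, from 710, 20 and 48 reads in RT and 510, 301, 6 and 4 reads in WT. The groups did not overlap, but RT1 exceeded WT1 by little. Its mean was 239 ± 186 TPM in RT and 50.2 ± 19.3 TPM in WT. The log2 fold change of 0.83 ± 0.37 in the reads did not pass (adjusted p = 0.165). It was 0.69 in deep libraries alone and 2.61 in shallow ones (adjusted p = 4.74e-05), and without WT1 it passed at 1.34 (adjusted p = 0.02).

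Cd27 encodes a receptor that resting CD4+ cells already carry (chromosome 6, 125232622 to 125237010, minus strand). Its TPM was 350.3, 455 and 585 in RT libraries, against 379, 391, 359.8 and 303 in WT libraries, and the groups overlapped. Cd27 was the highest of the 9 genes in each of the 4 WT libraries and ranked 2 or 3 in the RT libraries. The log2 fold change of 0.03 ± 0.16 did not pass (adjusted p = 0.922), and it was -0.14 in the deep libraries alone and 0.60 in the shallow ones. Its exons share 129 bases with the microRNA gene Mir8113. Ratios to Cd27 in the same library stood above every WT library in all 3 RT libraries for Icos, Tnfrsf4 and Tnfrsf9, which separated in TPM on their own. The ratio was 0.778 to 1.02 in RT and 0.223 to 0.521 in WT for Icos. For Tnfrsf4 it was 0.864 to 2.21 in RT and 0.196 to 0.552 in WT, and for Tnfrsf9 0.236 to 0.760 in RT and 0.0926 to 0.20 in WT.

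Among the ligands, Tnfsf8, which encodes CD30 ligand, rose in the test on reads (chromosome 4, 63831308 to 63861347, minus strand). It had 553, 265 and 509.7 TPM in RT libraries and 232, 116, 175 and 154 TPM in WT libraries. Its reads, the most of any of the 9 in RT1, numbered 6648, 39 and 77 in RT and 2184, 1349, 27 and 25 in WT. RT1 was the highest library here, unlike for the receptors, and RT2 came closest to WT. The mean was 443 ± 156 TPM in RT and 169 ± 48.5 TPM in WT, and the log2 fold change 1.64 ± 0.29 (adjusted p = 0.00742), with 1.76 in deep and 1.12 in shallow libraries alone. Tnfsf8 was also the only one of the 9 whose RT libraries all exceeded the WT libraries in deposited RPKM, as did 4.47% of genes (80.1, 96.9 and 166 in RT, 30.9, 17.7, 59.6 and 54.0 in WT). The call was lost without RT1 (1.12, adjusted p = 0.711) and kept without any other library.

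Cd40lg, the ligand through which CD4+ cells instruct B cells, behaved differently. It had 213, 62.0 and 222 TPM in RT libraries and 227, 149, 276 and 113 TPM in WT libraries, from as few as 3 reads in RT2 (95% Poisson interval 12.8 to 181 TPM, counting error only) and 6 in WT4. The groups overlapped, and the log2 fold change of 0.17 ± 0.25 did not pass (adjusted p = 0.681); it was 0.22 in deep libraries alone and -0.52 in shallow ones. The ratio of Tnfsf8 to Cd40lg in the same library was 2.60, 4.27 and 2.30 in RT and 1.02, 0.776, 0.633 and 1.37 in WT, with no overlap, while that of Tnfsf8 to Tnfsf11 overlapped (3.27 to 8.96 in RT, 2.94 to 7.93 in WT). Cd40lg is on the X chromosome (57212143 to 57224042). Xist was at 99.4 to 589 TPM in RT1, RT2, WT1 and WT2 and at 0 to 1.41 TPM in RT3, WT3 and WT4. Ddx3y, on the Y chromosome, was at 0 in the former and at 40.1 to 59.1 TPM in the latter, so both groups held libraries of each sex. The sexes were not balanced over the library sets. All deep libraries had Xist and no Ddx3y, as did RT2 alone among the shallow ones. Deep and shallow values of every gene therefore differ in sex as well as in depth, except for RT2. The part of sex in the values of Cd40lg and of the other costimulators was not tested.

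The remaining ligands were low. Tnfsf11 (RANKL; chromosome 14, 78277445 to 78308043, minus strand) had 61.8, 80.9 and 78.9 TPM in RT libraries and 72.1, 36.7, 22.0 and 52.5 TPM in WT libraries. RT1 lay below WT1, so the groups overlapped, and the log2 fold change of 0.31 ± 0.30 did not pass (adjusted p = 0.525), although it passed without WT1 (0.73, adjusted p = 0.036). Tnfsf9 (4-1BB ligand; chromosome 17, 57105325 to 57107757, plus strand) had 26.5, 0 and 20.5 TPM in RT libraries, against 13.5, 7.18, 0 and 0 TPM in WT libraries. Its reads were 103, 0 and 1 in RT and 41, 27, 0 and 0 in WT, and a count of 0 allows up to 63.0 TPM in RT2, 60.1 in WT3 and 57.3 in WT4, taking 3 reads as the limit. Tnfsf9 fell short of the read minimum; under a minimum of 10 reads over all libraries it gave a log2 fold change of 1.39 ± 0.40 (adjusted p = 0.0705), and 192 bases of its exons overlap the antisense gene Gm11110.

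The order of the genes by median TPM differed between the genotypes. In RT cells it was Tnfrsf4, Tnfsf8, Tnfrsf18, Cd27, Icos, Cd40lg, Tnfrsf9, Tnfsf11 and Tnfsf9; in WT cells it was Cd27, Cd40lg, Tnfrsf18, Tnfsf8, Tnfrsf4, Icos, Tnfrsf9, Tnfsf11 and Tnfsf9. Neighbours whose ranges did not overlap were Icos over Cd40lg, Tnfrsf9 over Tnfsf11 and Tnfsf11 over Tnfsf9 in RT, and Cd27 over Cd40lg, Icos over Tnfrsf9 and Tnfsf11 over Tnfsf9 in WT. The other neighbours, which include the upper 5 places in RT, did not differ beyond the spread of their libraries.

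The sorted cells also carried RNA of other cell types in amounts that varied between libraries. Summed over 9 B cell markers (such as Cd79a and Ms4a1), RT libraries had 156 to 371 RPM (reads per 1000000 recovered reads) and WT libraries 210.5 to 1635 RPM, the highest values being WT3 and WT4. Over 11 myeloid and dendritic markers the sums were 364 to 2541 RPM in RT, highest in RT1, and 612 to 1706 RPM in WT. Over 8 erythroid and platelet markers they were 171 to 405 RPM in RT and 112 to 1763 RPM in WT, and over 9 CD8 T and NK cell markers 33.2 to 613 RPM in RT and 122 to 149 RPM in WT. Single markers did not all follow these sums. Cd8a and Siglech were at 0 in all RT libraries. In the test on reads, 4 of the 8 myeloid and dendritic markers tested rose (Adgre1, Cd68, Cst3 and Csf1r) and 2 fell (Flt3 and Siglech). Over all genes tested, 9.28% rose and 7.95% fell. The 8 T cell markers (Cd4, Cd3d, Cd3e, Cd3g, Cd247, Cd2, Cd5 and Lck) summed to 3826, 8353 and 8057 RPM in RT, against 4349, 4410, 4879 and 4561 RPM in WT, so RT2 and RT3 stood apart. The part of these differences in the costimulator values was not tested beyond the following ratio.

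As a percentage of the reads of the 8 T cell genes in the same library, Icos was at 8.66%, 5.85% and 9.04% in RT, against 4.35%, 2.01%, 4.69% and 3.05% in WT. Tnfrsf4 was at 3.10%, 4.10% and 7.81% in RT and at 0.703% to 2.15% in WT. Tnfrsf9 was at 1.69% to 5.36% in RT and 0.661% to 1.33% in WT. These 3 genes kept their RT libraries above all WT libraries on this scale, as did 2.32% of the 5865 genes of the test on reads. Tnfsf8 overlapped here, since RT2 at 4.85% lay below WT1 at 5.68%, WT3 and WT4; its RT range was 4.85% to 15.8% and its WT range 2.96% to 5.68%. Tnfrsf18 overlapped as well (2.13% to 3.68% in RT, 1.65% to 2.93% in WT), and Cd27 was at 5.10% to 6.13% in RT and 5.66% to 6.64% in WT.

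**Figure D3:**
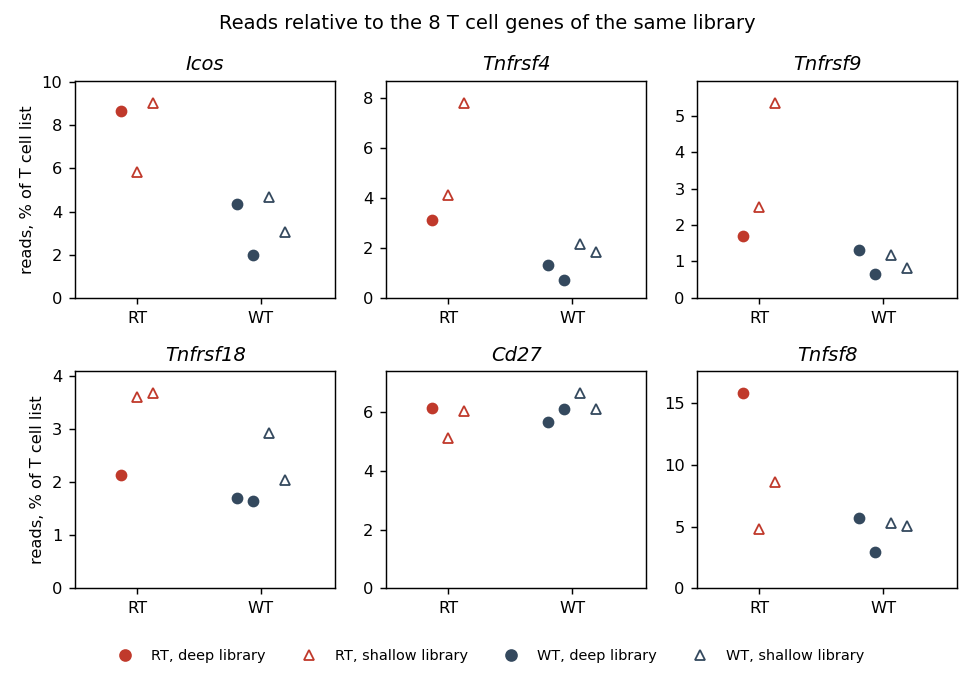
Reads of 6 costimulators as a percentage of the reads of the 8 T cell genes (Cd4, Cd3d, Cd3e, Cd3g, Cd247, Cd2, Cd5 and Lck) in the same library, RT left of WT, deep libraries as filled circles and shallow ones as open triangles; each axis starts at 0. The RT points of Icos, Tnfrsf4 and Tnfrsf9 lie above the WT points, while those of Tnfrsf18, Cd27 and Tnfsf8 overlap them.

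Genes of CD4+ cell states changed as well. Of 10 T follicular helper genes, 8 rose in the test on reads (Bcl6, Ascl2, Tox2, Pdcd1, Maf, Il21, Slamf6 and Cxcr5), where 9.28% of all genes tested rose and 7.95% fell. Their median log2 fold change was 1.69, against -0.03 over all genes, and the list summed to 3325 to 4253 RPM in RT, against 1267 to 2016 RPM in WT. Of 8 naive T cell genes tested, 7 fell (among them Ccr7 and S1pr1, receptors that keep naive cells recirculating), with a median of -2.15. The 9 genes of that list summed to 1495 to 2563 RPM in RT and 3552 to 4862 RPM in WT. The 8 regulatory T cell genes in the table summed to 1409 to 2428 RPM in RT and 838 to 1311 RPM in WT; of 5 tested, with a median of 0.67, Capg and Izumo1r rose and Il2ra fell, and Foxp3 itself had 120.3, 175 and 549.6 TPM in RT and 76.6 to 146 TPM in WT. Summed over the 9 costimulators the level was 1562, 2275 and 3435 RPM in RT and 704 to 1267 RPM in WT. All these calls were lost without RT1, and the part of these states in the costimulator values was not tested.

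**Figure D4:**
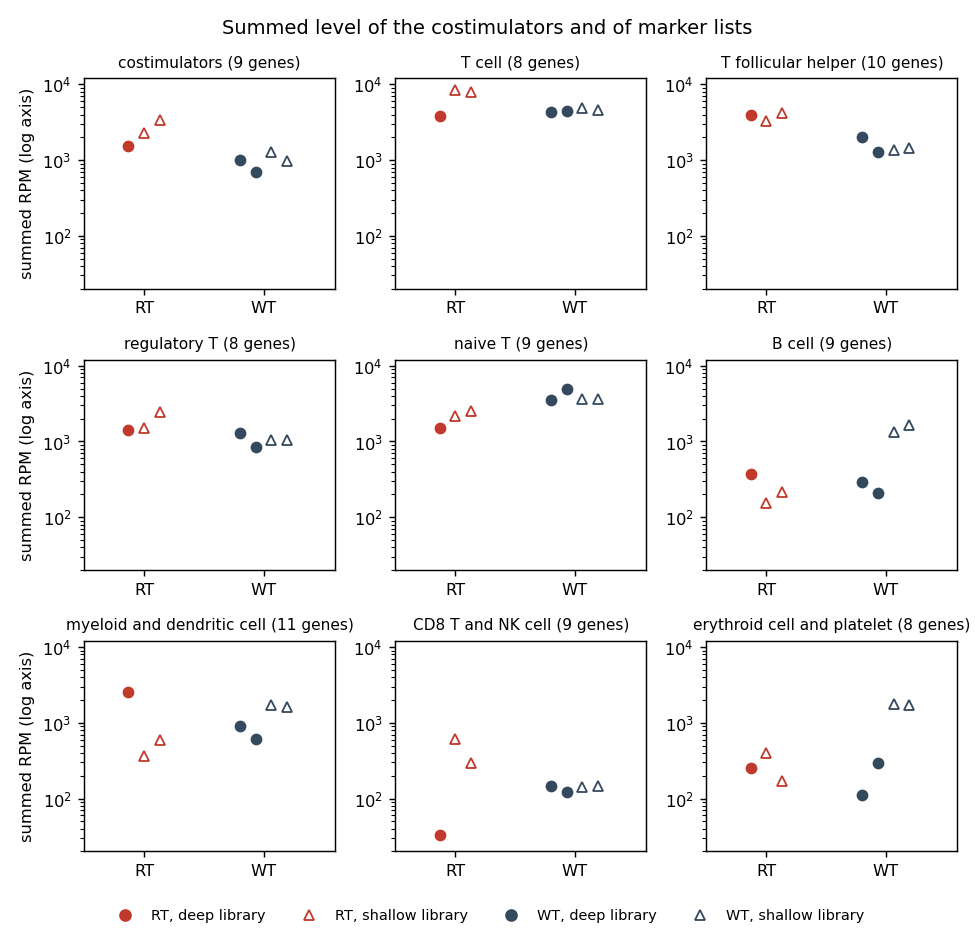
Summed RPM (log axis) of the 9 costimulators and of 8 marker lists in each library, RT left of WT, deep libraries as filled circles and shallow ones as open triangles. The sums of the costimulators and of the T follicular helper and regulatory T genes lie higher in RT, that of the naive T genes lies lower, and the B cell and erythroid sums are highest in WT3 and WT4.

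The binding partners of these proteins sit mostly on other cells, and most were low here. Icosl, the ligand of ICOS made by B cells and dendritic cells, had 25, 0 and 10.9 TPM in RT and 20.9, 15.6, 101 and 117 TPM in WT, high in the 2 libraries with the most B cell RNA. It was the only partner of 8 with enough reads and did not pass (log2 fold change 0.14 ± 0.48, adjusted p = 0.87), although shallow libraries alone gave -4.22 (adjusted p = 0.0106). Tnfrsf8, which encodes CD30, the receptor of CD30 ligand, had 52.6, 22.4 and 36.4 TPM in RT, against 11.4, 11.8, 0 and 0 TPM in WT. Its reads were 574, 3 and 5 in RT and 97, 125, 0 and 0 in WT. All RT libraries stood above the WT libraries, and under the minimum of 10 reads over all libraries its log2 fold change was 2.22 ± 0.24 (adjusted p = 0.00382), where 5.98% of 13103 genes were called higher. Its 3 and 5 reads in RT2 and RT3 are at or little above the limit of 3 reads. Tnfsf4 (OX40 ligand), Tnfsf18 (GITR ligand), Cd70, Cd40 and Tnfrsf11a (RANK) reached at most 13.4 TPM in any library, and Tnfrsf11b (osteoprotegerin, the decoy receptor of RANKL) was at 0 in all 7.

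Of 25 other genes of the CD28 and TNF families, 12 could be tested in the reads; 2 rose and 0 fell, against 9.28% and 7.95% of all genes, and their median log2 fold change was 0.15. Ctla4, the inhibitory counterpart of CD28, had 389.7, 1286 and 1352 TPM in RT and 210.4, 109, 296 and 383 TPM in WT. Every RT library was above every WT library, though RT1 passed WT4 by little, and the log2 fold change was 1.52 ± 0.25 (adjusted p = 0.00543). Tnfrsf1b, which encodes TNF receptor 2, had 381, 419 and 871 TPM in RT and 267, 159, 245 and 209 TPM in WT (log2 fold change 1.02 ± 0.24, adjusted p = 0.024). The Ctla4 call held under 13 of 15 alternatives and was lost without RT1 (1.90, adjusted p = 0.288) and without the library set term (2.23, adjusted p = 0.0808). That of Tnfrsf1b held under 7 of 15: it was lost without RT1 (1.38, adjusted p = 0.499), RT3, WT3 or WT4, with the replicate block (adjusted p = 0.0647), without the library set term, in the deep libraries alone and with WT3 and WT4 summed. Cd28 itself had 201, 122 and 139.9 TPM in RT and 237, 195, 133 and 80.6 TPM in WT, with a log2 fold change of -0.03 ± 0.15 (adjusted p = 0.906). The ratio of Icos to Cd28 in the same library was 1.67, 2.89 and 4.25 in RT, against 0.831, 0.447, 1.30 and 1.27 in WT, with no overlap between the groups.

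Of 32 genes that act downstream of these receptors or control their transcripts, 31 were tested; 4 rose and 5 fell, against 9.28% and 7.95% of all genes, with a median log2 fold change of 0.06. Of the 14 genes listed under NF-kB, 4 rose and 2 fell, with a median of 0.18. Nfkbie, an inhibitor of NF-kB that is itself an NF-kB target, had 219, 96.0 and 114 TPM in RT and 88.6, 93.7, 40.7 and 48.5 TPM in WT (log2 fold change 1.26 ± 0.15, adjusted p = 0.00148; 1.11 without RT1). Nfkb2, the precursor of the p52 subunit of the alternative pathway, had 252, 188 and 215 TPM in RT and 126, 109, 172 and 114 TPM in WT (1.02 ± 0.16, adjusted p = 0.00458), but its log2 fold change was 0.47 without RT1 (adjusted p = 0.832). The other members that rose were Tnfaip3, which encodes the brake A20 (1.10 ± 0.32), and Relb, the partner of p52 (0.73 ± 0.20). Relb kept its call under 3 of 15 alternatives and was at -0.36 in shallow libraries alone and without RT1; Tnfaip3 kept its call under 5 of 15. In the same branch Ikbkb, a kinase of the classical pathway, fell (-0.88 ± 0.15, adjusted p = 0.00663), as did Map3k14, the kinase NIK of the alternative pathway (-0.85 ± 0.20), which kept its call under 9 of 15 alternatives and was at -1.76 without RT1 (adjusted p = 0.586). Of the 5 TRAF adaptors tested, 0 passed the voom test (1, Traf5, lower in RT, at an unadjusted p under 0.05).

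In the phosphoinositide 3-kinase branch, which ICOS engages, 3 of 9 genes fell and 0 rose, against 7.95% and 9.28% of all genes, with a median log2 fold change of -0.17. Foxo1, a transcription factor that the kinase pathway keeps out of the nucleus, had 60, 17.9 and 34.9 TPM in RT and 166, 208, 82.4 and 51.5 TPM in WT. RT1 at 60 TPM overlapped WT4, but within each library set the RT libraries were lower, and the log2 fold change was -1.62 ± 0.20 (adjusted p = 0.00161). Pik3cd, the catalytic subunit p110 delta of lymphocytes, had 301, 198 and 221 TPM in RT and 437, 511, 354 and 308 TPM in WT, with no overlap (-0.66 ± 0.13, adjusted p = 0.0128), and Pik3r1, the regulatory subunit p85 alpha, was at -0.75 ± 0.14 (adjusted p = 0.00949). Of Rc3h1, Rc3h2 and Zc3h12a, which encode Roquin-1, Roquin-2 and Regnase-1, proteins that degrade the transcripts of Icos and Tnfrsf4, 0 passed the voom test, adjusted or not (log2 fold changes -0.05 to 0.46). All calls of this and the preceding paragraph were lost without RT1. Among other libraries left out, Tnfaip3 lost its call without RT2, RT3, WT3 or WT4 and Relb without WT1, WT2 or WT4.

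**Figure D5:**
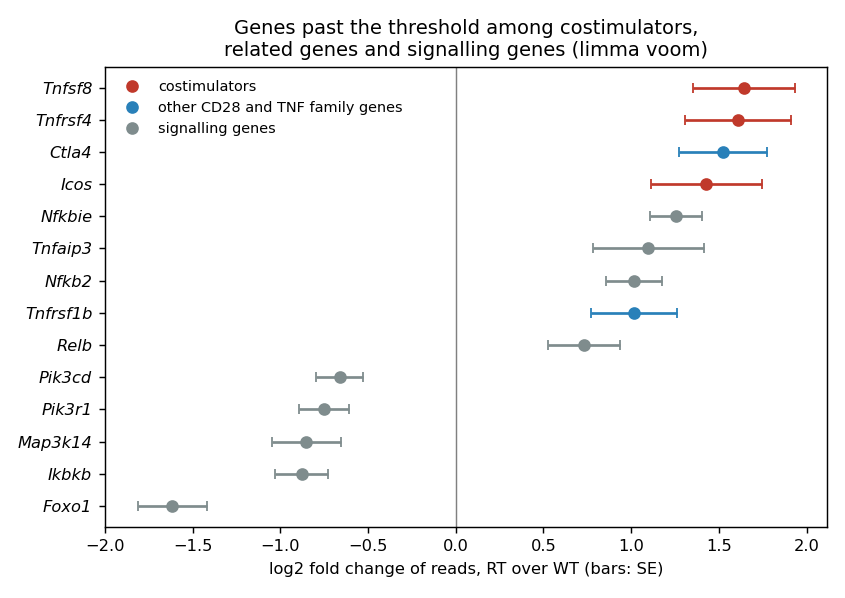
Log2 fold change of reads, RT over WT, with bars of 1 SE, for every gene past an adjusted p of 0.05 among the 9 costimulators (red), the other CD28 and TNF family genes (blue) and the signalling genes (grey). Tnfsf8, Tnfrsf4, Ctla4 and Icos lie between 1.43 and 1.64, and Foxo1 lies lowest at -1.62.

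The genes whose pattern was most like that of Icos were found by Pearson's r of log2(RPKM + 1), taken about the mean of each library set, over 7 libraries and 9282 genes. They were Reep3 (r = 0.997), Rnf157 (0.993), Ndfip1 (0.992), Sigirr (0.986) and Fam129a (0.985). In TPM the groups overlapped for Reep3, Rnf157 and Fam129a, though RT was higher within each library set. RT2 lay below WT1, at 24.6 against 49.2 for Reep3, 10.8 against 23.9 for Rnf157 and 45.5 against 92.2 for Fam129a. Fam129a did not pass the test on reads (adjusted p = 0.0707 by limma voom). Ndfip1, an activator of NEDD4 family ubiquitin ligases, had 663, 917 and 1301 TPM in RT and 516, 353, 609 and 455 TPM in WT, and Sigirr, an inhibitory member of the interleukin 1 receptor family, had 152, 212 and 273 TPM in RT and 109.8, 73.2, 129.5 and 84.9 TPM in WT. Among the costimulators r with Icos was 0.980 for Tnfrsf4, 0.934 for Tnfsf8, 0.931 for Tnfrsf9, 0.836 for Tnfrsf18, 0.664 for Cd27 and 0.075 for Cd40lg. The 7 points share their libraries and include the difference between genotypes, so these values are a description.

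Bases upstream of the start are shown for 3 genes because the enzyme missing in RT mice acts on methylated cytosine, which in mammals lies mostly before a guanine (CpG); methylation was not measured here. Starts and sequences are those of RefSeq for GRCm38.p6, whose table held 6 of the 9 genes (not Icos, Cd40lg and Tnfsf9), and each window ends at the base before a RefSeq start or, for Tnfsf8, where a GENCODE exon begins. The Tnfrsf9 window is that of the first of its 2 RefSeq starts and lies inside the span given above for the gene; the window of the second (chr4:150927749-150927917) held 3 CpG and is not shown. Tnfsf8 is the gene among those that rose with a usable window, Tnfrsf9 was higher in all RT libraries without passing the test on all reads, and Cd27 did not pass. Each is written 5′ to 3′ on the gene's strand with every CpG in capitals.
Tnfsf8, chr4:63861348-63861534, minus strand: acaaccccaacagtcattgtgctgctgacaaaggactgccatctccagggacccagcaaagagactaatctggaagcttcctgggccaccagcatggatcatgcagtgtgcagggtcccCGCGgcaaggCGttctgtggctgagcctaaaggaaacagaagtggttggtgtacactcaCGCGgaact
Tnfrsf9, chr4:150919905-150920154, plus strand: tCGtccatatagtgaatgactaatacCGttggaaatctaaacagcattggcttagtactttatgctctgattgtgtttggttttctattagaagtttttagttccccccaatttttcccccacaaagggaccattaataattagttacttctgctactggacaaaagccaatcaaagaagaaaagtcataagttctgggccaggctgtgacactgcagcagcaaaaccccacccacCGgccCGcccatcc
Cd27, chr6:125237028-125237277, minus strand: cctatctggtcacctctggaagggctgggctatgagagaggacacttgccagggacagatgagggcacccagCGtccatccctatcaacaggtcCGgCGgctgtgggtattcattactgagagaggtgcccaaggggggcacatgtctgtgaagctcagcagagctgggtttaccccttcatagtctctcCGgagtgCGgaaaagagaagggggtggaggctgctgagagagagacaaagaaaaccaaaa

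The Tnfsf8 window of 187 bases held 5 CpG, against a median of 4 (quartiles 1 and 10) in windows of the same length at the 32851 RefSeq starts. The Tnfrsf9 window held 4 and the Cd27 window 5 CpG in 250 bases, against a median of 6 (quartiles 2 and 16). All 3 thus lay between the quartiles of other starts. The letters TGANTCA (the AP-1 motif), searched on both strands, were in none of the 3 windows and in 5.14% of all windows of 187 bases and 6.75% of those of 250. GGAAA, the core bound by NFAT, occurred 1 time in Tnfsf8, 2 times in Tnfrsf9 and 1 time in Cd27, and in 46.5% and 55.6% of all windows of 187 and 250 bases. The NF-kB motif was searched as GGGRNWYYCC on both strands (R is A or G, W is A or T, Y is C or T). It was in none of the 3 windows, and in 2.92% and 3.90% of all windows of 187 and 250 bases. The absence of any of these letters in a window says nothing of the factors.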

How the data were processed

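RNA of sorted CD4+ spleen cells went into TruSeq v2 libraries, per the labels' protocols. The authors deposited RPKM values for 19589 genes in 7 columns, named as the samples are. The submitters' processing notes name the build mm10; for aligner, counting tool, annotation and strand setting, nothing was given in the sources used here. The design text calls the samples separate mice. The 9 genes and all gene lists were chosen with earlier results of these data known.

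Whole reads were recovered from the deposited RPKM as value times gene length times library total, with GENCODE M21 exon lengths or, where these gave no whole reads, the shortest length that did (tolerance 0.0001 reads). With GENCODE lengths, 78.9% to 83.8% of values under 100 reads were whole within 0.01. The GENCODE length held for 8 of the 9 genes, and for 10307 of the 13859 genes above 0. Recovered reads were 47.6% to 51.5% of the total in deep libraries and 88.2% to 91.4% in shallow ones. One read was worth 0.0911 to 0.113 RPM in deep and 8.99 to 10.4 RPM in shallow libraries, and a count of 0 allows up to 3 reads.

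The planned test was limma 3.58.1 (R 4.3.3) with a trended prior on log2(RPKM + 1), which understates changes of low genes, for genes reaching 1 RPKM in 3 or more libraries. The test on recovered reads was limma voom, with genotype and library set as terms. P-values are two-sided with Benjamini-Hochberg adjustment at 0.05. The scripts were tested on simulated data. Named genes are the 9, Tet2, Rhoa, up to 6 genes with the smallest p past the read test in each of the lists of partners, relatives and signalling genes, and the 5 most like Icos; Relb, Tnfaip3, Map3k14, Tnfrsf8, Icosl, Cd28 and marker genes were named after their values were seen. WT3 and WT4 differed by little, though by more than sampling noise (chi-square per degree of freedom 1.14 over 2349 genes, p = 2.34e-06). RT2 and RT3 gave 2.997 over 2165 genes. The chi-square test cannot show that WT3 and WT4 are separate samples, and they were kept as 2. Some marker genes are not reported here, and the list sums and counts leave them out.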

Additional observations from a re-analysis of the deposited data

Results flagged for a closer look

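Summed over the 9 naive T cell genes, WT2 had 4862 RPM and stood apart from WT1, WT3 and WT4 (3552, 3650 and 3641 RPM): its gap to the nearest of them was 0.925 of the range of the 4 WT libraries, above Dixon's 95% critical value for 4 samples. This was the 1 value past that limit among 31 groups of 4 libraries examined, and chance alone passes it in about 1 of 20.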

How the results depend on the processing

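Without RT1 no gene passed the read test by limma voom (with unadjusted p under 0.05 for 171 higher and 357 lower genes); the cause was not tested. At 105763 to 121659 reads a shallow library gives a gene few reads, which limits Tnfsf9, Tnfsf11 and Cd40lg most. In the RPKM test, 0 of the 9 costimulators passed under all 15 alternatives. Genes called higher and lower there numbered 4 and 1. They were 0 and 0 with a pseudocount of 0.1, without the filter, with the replicate block and with WT3 and WT4 averaged. With a pseudocount of 5 the lower count was 0; rescaled to 1000000 they were 7 and 5, with a library set term 21 and 5, and with both 2 were lower. Leaving out each replicate gave 0 to 10 higher and 0 to 5 lower. Rescaling with the set term, and the 10-read minimum for the set difference, were chosen after seeing the data.

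In the read test (544 higher, 466 lower), dropping the library set term gave 307 and 207, deep libraries alone 250 and 132, and shallow libraries alone 222 and 322 with 5 of the 9 genes. Filtering at 10 reads over all libraries gave 784 and 455. Leaving out each replicate gave 0 to 737 higher, 0 to 653 lower and 0 to 5 of the 9 genes higher. Of the 9, 0 fell under any alternative. Icos kept its direction under all 15 alternatives and its call under 10; Tnfrsf4 and Tnfsf8 kept theirs under 14. The alternatives' adjusted p ran from 4.68e-05 to 0.598 for Icos, 5.19e-06 to 0.439 for Tnfrsf4 and 0.00068 to 0.711 for Tnfsf8. Changes of sign fell on genes that did not pass, except Relb.

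Cd40lg turned positive in the RPKM test with WT3 and WT4 averaged (0.045) and without RT1, RT2 or WT3 (-0.58 to 0.29 over all replicates left out), and negative in the read test with the replicate block (-0.073), in shallow libraries alone (-0.52) and without RT1 or WT2 (-0.53 to 0.38). Cd27 turned negative with 10 reads over all libraries (-0.046), without a filter (-0.054), in deep libraries alone (-0.14) and without RT2, RT3 or WT4 (-0.041 to 0.60). Tnfsf11 did so with the replicate block (-0.15) and without WT2 (-0.10 to 1.04). Relb was at -0.36 in shallow libraries alone and without RT1 (-0.36 to 0.79). Icosl was at -0.16 with 10 reads over all libraries, -0.24 without a filter, -4.22 in shallow libraries alone and negative without RT1 or WT2 (-4.18 to 0.36). Cd28 was at 0.0041 with median-of-ratios size factors, 0.29 in shallow libraries alone, and positive without RT1 or WT1 (-0.12 to 0.29). The causes were not tested.

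Deviations of same-numbered RT and WT libraries correlated at r = 0.43, -0.18 and 0.18 for numbers 1, 2 and 3. Numbers 1 and 3 each join libraries of the same set, while number 2 joins shallow RT2 with deep WT2. The values therefore cannot tell pairing from library set, and the numbers were not taken as pairs. With the replicate block the read test called 525 higher and 456 lower, Icos (0.96), Tnfrsf4 (1.23) and Tnfsf8 (1.31) among them. Relb (0.64, adjusted p = 0.0847) and Tnfrsf1b (0.84, adjusted p = 0.0647) did not pass with it.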
